A study of Homo sapiens with 33 samples.

Results

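NCI-H2052, written H2052 here, is an established malignant pleural mesothelioma (MPM) cell line, and its transcriptome after prolonged palbociclib was compared with that after DMSO. The members were chosen by cell line and treatment alone: 4 of the 33 RNA-seq libraries, 2 of DMSO cells and 2 of palbociclib cells, compared within replicate number over all genes. DMSO cells received 0.1% DMSO and palbociclib cells received 1 µM palbociclib, for 9 days in replicate 1 and for 10 days in replicate 2, so that replicate number and day cannot be told apart. All were grown in RPMI-1640 with 10% serum, with fresh medium every few days. Each condition is thus 2 cultures of a single line. The p-values rest on how far the changes of the 2 pairs disagree, moderated by a spread shared over genes. They do not cover the spread between lines.

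The study asked how prolonged CDK4/6 inhibition reshapes gene expression in MPM cell lines. Besides H2052, the lines H2452, H28 and MSTO-211H were classed as sensitive, and they gave 3 DMSO and palbociclib pairs each at the same dose, 9 pairs in all, at 9 or 10 days. MPP89 and MeT-5A, classed as resistant, were not used. A single H2052 washout library, from cells given 1 µM palbociclib for 10 days and then drug-free medium for 48 h, is described at the end.

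D-type cyclins bind CDK4 and CDK6, which phosphorylate the retinoblastoma protein and so release E2F factors that transcribe the genes of DNA replication. Palbociclib blocks the kinase activity of both CDKs, leaving the retinoblastoma protein active as a repressor, and genes of mitosis are repressed with it through the DREAM complex. Pleural mesothelioma is known for loss of CDKN2A, which encodes the CDK4/6 inhibitor p16, and for defects of the Hippo pathway, through NF2 or LATS2.

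Expression is given in CP20M, the authors' read counts scaled to a common library total, always with DMSO replicates 1 and 2 before palbociclib replicates 1 and 2. Changes are differences of log2(CP20M + 10), which understate the fold change of genes of low level, with their standard error. A gene was called a DE gene at more than 1.5-fold with a limma adjusted p under 0.05. The totals of the H2052 libraries ran from 20013741 to 20019921 CP20M. Skipped whole numbers placed 1 read at about 1.03 CP20M in DMSO replicate 2 and at about 1.19 CP20M in palbociclib replicate 1, while the other two libraries skipped none of the low whole numbers, so that their depth is unknown. Of 12 mesothelial markers, 10 reached 100 CP20M, with sums of 80832 and 97905 in DMSO libraries and of 121432 and 114190 in palbociclib libraries, whereas KRT5 and UPK3B stayed at or below 11 CP20M. None of 7 lung epithelial markers reached 100 CP20M. CD68 was the single leukocyte marker of 10 that did so, and the endothelial markers TIE1 and KDR did so among 7. CDKN2A, its neighbours CDKN2B and MTAP, and LATS2 were listed at 0 in all 4 libraries, and these were picked out after their values were seen.

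A level of 100 CP20M in 1 or more H2052 libraries was reached by 14115 genes. Of these, 1055 were up-regulated by palbociclib (7.47%) and 3237 were down-regulated (22.9%), 30.4% in all. Both replicates moved the same way in 4289 of these 4292 DE genes. A gene under 100 CP20M in both libraries of 1 condition was tested only if the other condition reached that level. The shares called, here and in the lists below, are thus partly set by the filter. The balance depended on the scaling, since the median log2 fold change over all tested genes was -0.25 with the deposited scaling and 0.02 with median-of-ratios scaling. With the latter, 2055 genes were higher (14.6%) and 1450 lower (10.3%), so that higher genes made up 58.6% of the calls rather than 24.6%. All 1055 up-regulated genes and 1450 of the down-regulated genes were called the same way by both scalings, and 0 genes were called in opposite directions. A single pair, with the spread taken from the other lines, gave fewer calls, at 520 higher and 2320 lower without replicate 1, and at 425 higher and 1696 lower without replicate 2. Changes below are with the deposited scaling, and a down-regulated gene that median-of-ratios scaling did not call is named as such.

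The DE genes with the largest changes, at a mean of 200 CP20M or more in 1 condition, divided by kind. Of the 12 largest rises, 11 were those of OLR1, ANGPTL4, PI3, C3, SYNPO2L, PTPRQ, STC1, CALB2, ICAM1, LIPH and FAP, which encode mostly secreted and cell surface proteins. The 12 largest falls included 9 histone genes, with NEURL1B, LMNB1 and TNC. All 23 were also called with median-of-ratios scaling.

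**Figure D1:**
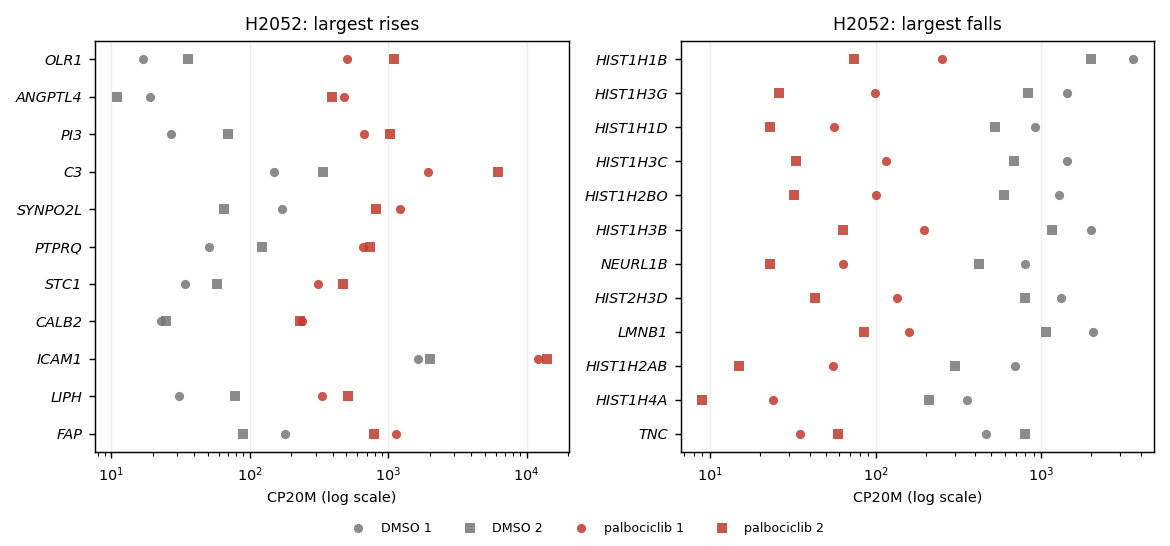
CP20M on a log axis in each of the 2 DMSO and 2 palbociclib libraries of H2052 for 11 of the 12 genes with the largest rises and the 12 with the largest falls. Each point is 1 library, and the DMSO and palbociclib points of every gene lie apart, from OLR1, at 17 and 36 against 509 and 1098, to TNC, at 461 and 799 against 35 and 59.

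The direct targets of the drug and their partners moved unequally. CCND1, encoding cyclin D1, was at 31753 and 20388 CP20M in DMSO cells and at 52478 and 47136 CP20M in palbociclib cells. Both palbociclib libraries lay above both DMSO libraries (0.97 ± 0.16 on the log2 scale, limma adjusted p = 0.000514). CDK6 also rose, from 2178 and 2268 to 3310 and 3740 CP20M (0.66 ± 0.11, limma adjusted p = 0.000645). With the spread taken from the other lines, the call of CCND1 was lost without replicate 2 and that of CDK6 without either replicate. CDK4 went the other way, from 3800 and 2963 to 2035 and 1514 CP20M (log2 fold change -0.93 ± 0.11, limma adjusted p = 6.02e-05), with no overlap of the groups. RB1, which encodes the retinoblastoma protein itself, was at 869 and 553 in DMSO cells and at 609 and 578 CP20M in palbociclib cells, and the groups overlapped. Among inhibitors, CDKN2C, which encodes p18, fell from 534 and 306 to 114 and 52 CP20M (-2.24 ± 0.18, limma adjusted p = 2.26e-06), and CDKN1A, which encodes p21, fell from 5953 and 6991 to 3694 and 3668 CP20M (-0.81 ± 0.12, limma adjusted p = 0.000235), without a call under median-of-ratios scaling.

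CCND2 (ENSG00000118971, chr12:4269771-4305353 on GRCh38), encoding cyclin D2, separated H2052 from the other sensitive lines. Its H2052 levels were 204 and 401 CP20M in DMSO cells and 244 and 455 CP20M in palbociclib cells, so the groups overlapped and the log2 fold change was 0.21 ± 0.15 (limma adjusted p = 0.25). The log2 fold change was 3.90 ± 0.23 (SD over 3 pairs) in H28, 2.51 ± 0.75 in MSTO-211H and 1.76 ± 1.13 in H2452, where CCND2 was low. The difference, here and below the H2052 change minus the mean change of the other 3 lines, was -2.51 ± 0.47 (limma adjusted p = 0.012), and both H2052 pairs lay below all 9 other pairs. That call was lost without the block for experiment, without either H2052 pair and without the line H28. CDK4 likewise fell further in H2052, with a difference of -0.66 ± 0.13 (limma adjusted p = 0.0156) that lost its call under median-of-ratios scaling (adjusted p = 0.0635) and without either H2052 pair. For CDKN1B, encoding p27, the difference had the opposite sign, at 0.67 ± 0.15 (limma adjusted p = 0.0239, lost without either H2052 pair). Its H2052 levels were 807 and 895 against 625 and 812 CP20M, a change of -0.25 ± 0.13 that did not pass, against -1.02 ± 0.04 in H28, -1.01 ± 0.19 in MSTO-211H and -0.72 ± 0.25 in H2452.

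**Figure D2:**
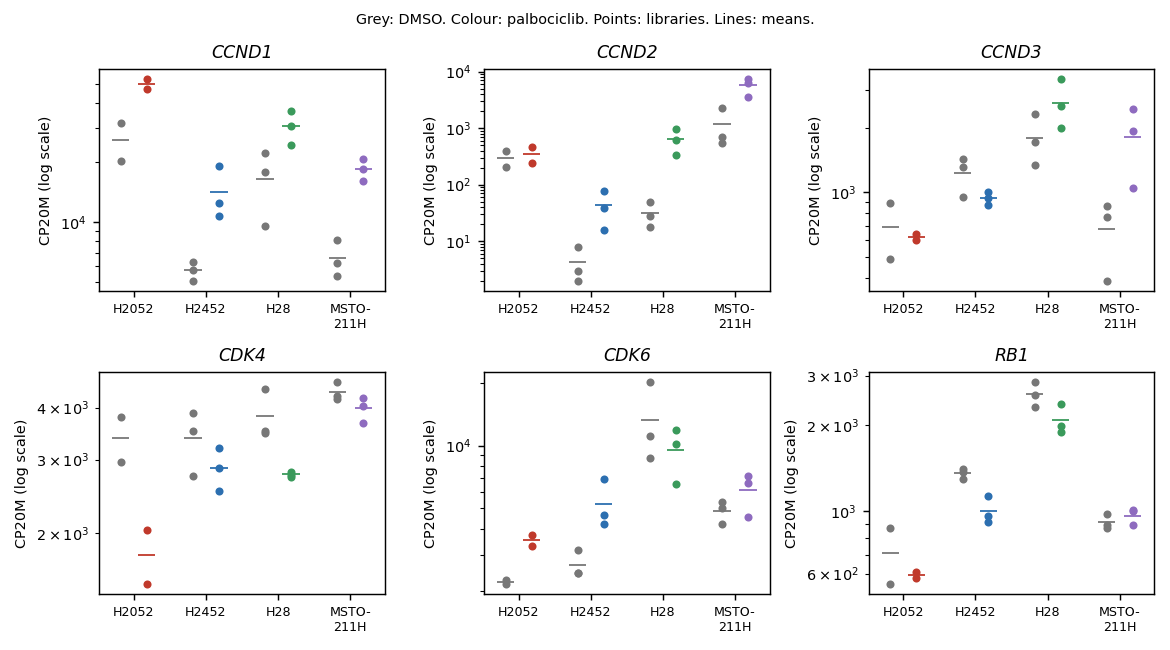
CP20M on a log axis of the D-type cyclin genes, CDK4, CDK6 and RB1 in each DMSO and palbociclib library of the 4 sensitive lines, with 2 libraries per condition in H2052 and 3 in each other line, and lines at the means. CCND2 lies at 204 to 455 CP20M in all 4 H2052 libraries, whereas its palbociclib points stand above its DMSO points in the other lines.

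Proliferation genes fell as a body in H2052. In a list of kinetochore, spindle and mitotic kinase genes, 37 of 37 tested members were down-regulated, against 22.9% of all genes tested. Their median log2 fold change was -2.31, against -0.25 over all genes tested. The replication list, of licensing, fork and nucleotide synthesis genes, had 32 of 38 down-regulated (median -1.05; 23 with median-of-ratios scaling), and the list of cyclins, CDKs, E2F and DREAM factors had 17 of 22 (median -1.56; 14 with median-of-ratios scaling). In limma 0 members of the 3 lists were up-regulated under either scaling, and 0 rose at an unadjusted p under 0.05. CDK1, the kinase that drives entry into mitosis, fell from 1446 and 718 to 233 and 70 CP20M (-2.88 ± 0.17, limma adjusted p = 1.46e-07). FOXM1, a transcription factor of mitotic genes, fell from 3056 and 1511 to 705 and 391 CP20M. RRM2, a subunit of ribonucleotide reductase, fell from 4937 and 2490 to 836 and 344 CP20M. For each of these 3 genes DMSO replicate 1 was the highest library and palbociclib replicate 2 the lowest, and the groups did not overlap. In contrast, CCNE1, encoding cyclin E1, was at 231 and 177 CP20M in DMSO cells and 219 and 177 CP20M in palbociclib cells, with a log2 fold change of -0.04 ± 0.17 that did not pass (limma adjusted p = 0.87). E2F1 was at 1591 and 721 against 853 and 660 CP20M, and its groups overlapped.

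The depth of this fall did not set H2052 apart. Median changes of the mitotic list were -1.99 in H28, -2.03 in MSTO-211H and -3.64 in H2452, and those of the replication list were -1.09, -0.68 and -1.66 in the same order. Across the 3 lists, SPC24, a kinetochore component, was the single gene with a called difference, and it fell less in H2052, from 896 and 721 to 382 and 373 CP20M (-1.07 ± 0.14; difference 0.93 ± 0.18, limma adjusted p = 0.0157).

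The promoters of the mitotic genes are shown because the list fell as a whole and these genes are known targets of DREAM, which reads the CHR element. The sequences run from 250 bases before to 50 bases after the RefSeq start, on GRCh38.p14, and capitals mark TTTGAA, the letters of a CHR element. In a search of both strands, TTTGAA was present in 24 of the 33 mitotic list genes that had a RefSeq window (72.7%), against 18.2% of all 27305 genes with one. A match describes the letters only. CDK1 and PLK1, which encodes polo-like kinase 1, each held 1 copy on their own strand, and for CDK1, with 2 windows, the first start is shown.
CDK1, chr10:60778081-60778380, + strand: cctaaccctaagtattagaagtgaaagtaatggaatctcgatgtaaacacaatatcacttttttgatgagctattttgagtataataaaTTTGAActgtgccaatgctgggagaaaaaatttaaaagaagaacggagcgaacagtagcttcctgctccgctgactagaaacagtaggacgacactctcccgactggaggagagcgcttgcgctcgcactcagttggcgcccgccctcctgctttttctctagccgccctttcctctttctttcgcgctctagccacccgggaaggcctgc
PLK1, chr16:23678639-23678938, + strand: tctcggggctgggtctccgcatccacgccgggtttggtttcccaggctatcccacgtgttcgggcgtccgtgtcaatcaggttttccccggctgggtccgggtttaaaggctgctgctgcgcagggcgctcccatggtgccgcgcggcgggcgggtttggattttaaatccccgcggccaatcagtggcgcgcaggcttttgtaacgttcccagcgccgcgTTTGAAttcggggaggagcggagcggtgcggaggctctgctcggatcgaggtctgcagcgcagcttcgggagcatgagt

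Histone genes fell further than any list. All 54 replication-dependent histone cluster genes tested were down-regulated under both scalings, against 22.9% of all genes with the deposited scaling. Their log2 fold changes had a median of -3.17 and a range of -4.18 to -1.31. HIST1H1B, a linker histone, fell from 3566 and 2002 to 252 and 74 CP20M (-4.18 ± 0.17, limma adjusted p = 2.59e-08), and HIST1H3G from 1431 and 835 to 99 and 26 CP20M (-4.14 ± 0.20). Near-identical histone copies can share reads, so that the values of single genes are uncertain, and whether poly(A) RNA was selected is not given in the sources used here. Over the same genes the medians were -2.15 in H28, -2.50 in MSTO-211H and -2.78 in H2452. Of the 60 histone genes tested for the difference, 2 were higher and 6 lower in H2052, against 1.32% and 4.59% of all genes. HIST1H4I, the one among the 12 lowest differences, fell from 713 and 489 to 142 and 161 CP20M in H2052 (-1.90 ± 0.18), against 0.99 ± 0.25 in H28, -0.16 ± 0.41 in MSTO-211H and -0.38 ± 0.17 in H2452 (difference -2.05 ± 0.23, limma adjusted p = 0.00143). LMNB1, which encodes the nuclear lamina protein lamin B1 and is known to be low in senescent cells, fell from 2045 and 1062 to 158 and 85 CP20M (-3.55 ± 0.14, limma adjusted p = 2.59e-08). Its difference from the other lines was -0.91 ± 0.39 and did not pass (limma adjusted p = 0.171).

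Relative to the other 3 sensitive lines together, 16759 genes were tested, with 221 whose H2052 change was higher (1.32%) and 770 whose change was lower (4.59%), 5.91% in all. The p-values of this difference measure the spread between pairs within lines, and not the spread among the other lines. With median-of-ratios scaling the counts were 359 (2.14%) and 332 (1.98%), of which 217 and 331 were shared with the deposited scaling. Both H2052 pairs lay above all 9 other pairs in 158 of the 221 genes and below them in 570 of the 770, against 2.33% and 9.72% of all genes tested. The calls were made from these same pairs, so that high shares are largely set by the call and add no support to it. In 106 of the 221 and 428 of the 770, the H2052 change and the mean change of the others had opposite signs. Many of the differences rest on genes that the other lines hardly express, and 118 of the 221 and 405 of the 770 reached 100 CP20M in every other line. PI3, IVL, ESRP1, HAS2, SLC2A5, GABRQ, TMEM40 and SYNPO2L stayed below 100 CP20M in all libraries of the other lines and passed the filter through H2052 alone, so that the size of their differences depends on the added 10. With a pseudocount of 1 their differences were not called, nor were those of FAP, GREM1, GDF5OS, TNFSF10, ICAM1, COL6A2 and PTPRQ. The counts also rest on both H2052 pairs. Without replicate 1 they were 46 and 202, and without replicate 2 they were 9 and 22. Of the genes named with a called difference, LNCSRLR, HIST1H4I, HSPA4L, HAS2, SLC2A5, FAM84A and GABRQ kept a called difference without either H2052 pair, and all others lost it without replicate 2.

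p53 target genes fell in H2052 and set it apart. The transcription factor p53 activates genes of cell cycle arrest, DNA repair and apoptosis. Of 27 targets tested, 18 were down-regulated in H2052 (66.7%, against 22.9% of all genes) and 0 up-regulated in limma (20 and 0 at an unadjusted p under 0.05). Their median was -0.87 (14 down-regulated and a median of -0.59 with median-of-ratios scaling). The medians of the same genes were 0.23 in H28, -0.06 in MSTO-211H and -0.08 in H2452. The difference was called lower for 14 of the 27, against 4.59% of all genes, and for 9 with median-of-ratios scaling and 5 without the block. Both H2052 pairs lay below all 9 other pairs for 14 genes, against 9.72% of all genes.

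MDM2, a p53 target whose product marks p53 for degradation, was at 15934 and 13871 CP20M in DMSO cells and at 9301 and 8345 CP20M in palbociclib cells. Every palbociclib library was below every DMSO library (-0.75 ± 0.12 on the log2 scale, limma adjusted p = 0.000449, not called with median-of-ratios scaling), against 0.53 ± 0.27 in H28, 0.29 ± 0.29 in MSTO-211H and -0.17 ± 0.14 in H2452. The difference of -0.97 ± 0.16 was called under both scalings (limma adjusted p = 0.00776). FDXR, encoding the mitochondrial ferredoxin reductase, fell from 1508 and 1886 to 499 and 411 CP20M (-1.87 ± 0.15; difference -1.26 ± 0.22, limma adjusted p = 0.00867). BTG2, an antiproliferative gene, fell from 1093 and 1007 to 638 and 473 CP20M, while its changes were 0.65 ± 0.20, 0.98 ± 0.60 and 0.58 ± 0.50 in H2452, H28 and MSTO-211H (difference -1.66 ± 0.29, limma adjusted p = 0.00954). BTG2 thus had opposite signs in H2052 and in the mean of each other line, and the H2052 groups did not overlap for either gene. GDF15, a stress cytokine, fell from 1339 and 2348 to 658 and 735 CP20M, with a difference of -1.97 ± 0.34 (limma adjusted p = 0.00902) with the change in MSTO-211H also negative, at -0.82 ± 0.39. BBC3, which encodes the apoptosis inducer PUMA, fell from 254 and 420 to 96 and 72 CP20M, and XPC, which recognises DNA damage, fell from 1298 and 1362 to 697 and 562 CP20M. Both differences were called under both scalings, while MSTO-211H had changes of -1.80 ± 0.12 for BBC3 and -0.82 ± 0.23 for XPC.

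TIGAR, which lowers glycolytic flux, and SESN2, a stress-induced inhibitor of mTORC1, showed another form of the difference. TIGAR was at 797 and 766 CP20M in DMSO cells and at 767 and 665 CP20M in palbociclib cells, and SESN2 was at 1156 and 1804 against 1212 and 1387 CP20M. Neither was a DE gene in H2052, whereas the change was positive in all 9 other pairs for each (differences -0.90 ± 0.13, limma adjusted p = 0.00426, and -0.86 ± 0.16, adjusted p = 0.0106).

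Glycolysis and hypoxia response genes moved the opposite way. Of 35 tested, 18 were up-regulated in H2052 (51.4%, against 7.47% of all genes) and 0 down-regulated in limma (22 and 0 at an unadjusted p under 0.05). Their median was 0.59, against -0.25 over all genes. The medians of the same genes were -0.15 in H28, 0.33 in MSTO-211H and 0.20 in H2452. Over the 39 members tested for the difference, 7 were higher in H2052 and 0 lower in limma (13 and 1 at an unadjusted p under 0.05), against 1.32% of all genes: LDHA, PLOD2, STC1, BNIP3, BNIP3L, PFKFB4 and SLC2A5, all under both scalings.

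LDHA, the lactate dehydrogenase subunit that ends glycolysis in lactate, was at 15309 and 14834 CP20M in DMSO cells and at 31819 and 32384 CP20M in palbociclib cells. The replicates of each condition lay close together and the groups did not overlap (1.09 ± 0.13, limma adjusted p = 6.69e-05). Its changes were -0.42 ± 0.15 in H28, 0.37 ± 0.12 in MSTO-211H and 0.02 ± 0.11 in H2452, and both H2052 pairs lay above all 9 others (difference 1.10 ± 0.13, limma adjusted p = 0.00183). PLOD2, a lysyl hydroxylase that prepares collagen for cross-linking, rose from 7175 and 8509 to 31167 and 31629 CP20M (2.01 ± 0.13, limma adjusted p = 4.26e-07). The change of PLOD2 in MSTO-211H was 1.71 ± 0.88, so that the H2052 pairs lay within the range of the others although the difference was called (1.54 ± 0.31, limma adjusted p = 0.0167). BNIP3 and BNIP3L, which encode mitophagy receptors, rose from 2000 and 1886 to 2733 and 3975 CP20M and from 1933 and 2000 to 3580 and 3779 CP20M. Their differences were 0.93 ± 0.16 and 0.62 ± 0.13. VEGFA, the endothelial growth factor, and ADM, encoding adrenomedullin, were DE genes as well, at 849 and 1805 against 2917 and 3746 CP20M and at 2094 and 2607 against 7370 and 7781 CP20M, without a called difference from the other lines. STC1, encoding the hormone stanniocalcin-1, rose from 34 and 58 to 314 and 473 CP20M (2.85 ± 0.19), above all 9 other pairs (difference 2.12 ± 0.30, limma adjusted p = 0.00421). SLC2A5, a fructose transporter, rose from 33 and 34 to 135 and 165 CP20M, where the other lines had at most about 1 CP20M on average.

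The promoters of LDHA, PLOD2 and BNIP3 are shown as examples from the 7 members with a called difference from the mean of the other lines. Capitals mark ACGTG on either strand, the core letters that hypoxia-inducible factors read, overlapping copies joined. ACGTG was found on at least 1 strand in 20 of the 34 members of the list that had a RefSeq window (58.8%), against 24.9% of the 27305 genes. Of the 13 up-regulated members with a window, 6 held it (46.2%), a lower share than that of the whole list. The examples shown all hold it and so do not describe the up-regulated members. Whether the other members with a called difference hold it is not given here. LDHA has 2 windows, of which the first start is shown.
LDHA, chr11:18394313-18394612, + strand: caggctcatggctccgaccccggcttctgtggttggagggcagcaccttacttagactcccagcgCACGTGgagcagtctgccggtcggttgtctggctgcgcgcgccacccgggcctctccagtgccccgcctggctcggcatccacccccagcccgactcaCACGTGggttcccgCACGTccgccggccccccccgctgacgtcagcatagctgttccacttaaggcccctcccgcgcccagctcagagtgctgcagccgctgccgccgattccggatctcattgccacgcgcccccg
PLOD2, chr3:146161135-146161434, - strand: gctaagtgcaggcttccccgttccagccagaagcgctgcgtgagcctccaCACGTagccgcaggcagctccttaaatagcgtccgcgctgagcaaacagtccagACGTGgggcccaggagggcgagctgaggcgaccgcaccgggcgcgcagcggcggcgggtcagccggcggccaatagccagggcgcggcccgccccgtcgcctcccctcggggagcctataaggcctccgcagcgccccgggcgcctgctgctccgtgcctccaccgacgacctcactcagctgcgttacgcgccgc
BNIP3, chr10:131981874-131982173, - strand: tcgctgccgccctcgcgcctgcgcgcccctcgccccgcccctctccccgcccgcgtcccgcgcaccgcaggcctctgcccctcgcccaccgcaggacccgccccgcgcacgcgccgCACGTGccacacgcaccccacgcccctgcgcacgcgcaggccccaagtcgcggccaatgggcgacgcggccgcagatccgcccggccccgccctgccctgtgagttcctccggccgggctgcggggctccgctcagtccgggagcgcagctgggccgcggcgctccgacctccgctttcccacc

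**Figure D3:**
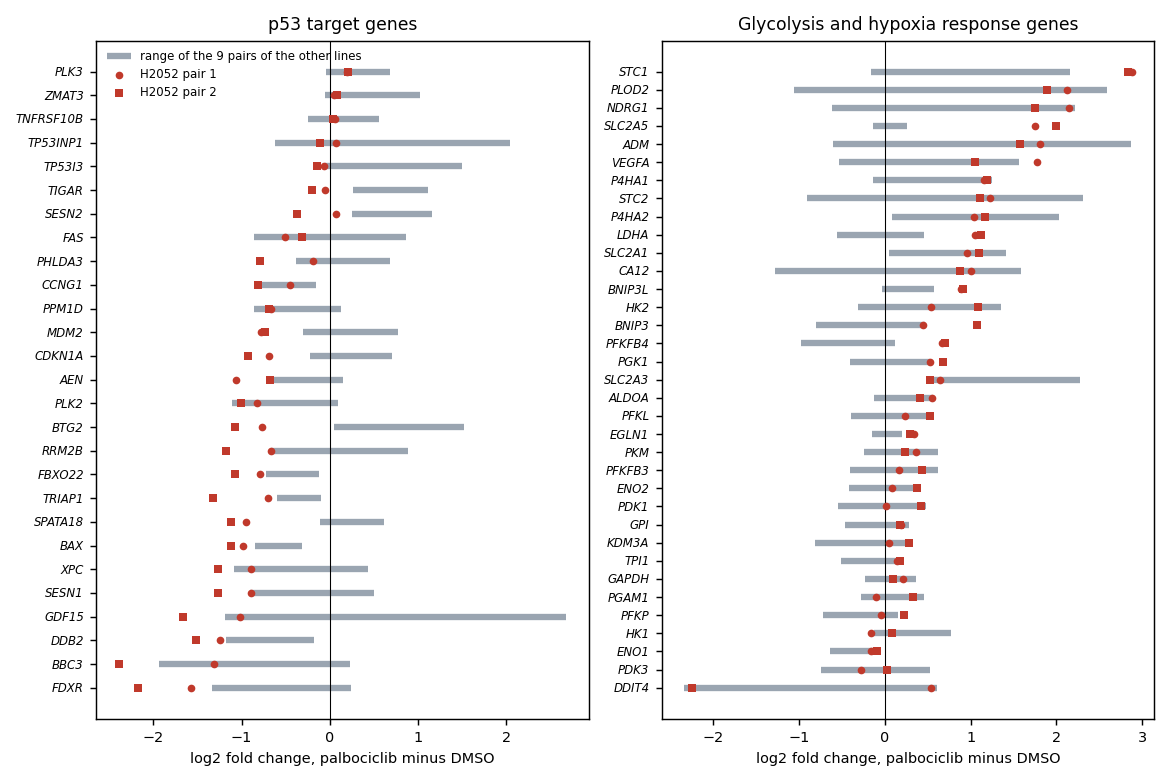
log2 fold change of palbociclib against DMSO for the tested p53 target genes and glycolysis and hypoxia genes, with red points for the 2 H2052 pairs and a grey bar for the range of the 9 pairs of the other sensitive lines. The H2052 points lie left of the bar for MDM2 and BTG2 and right of it for LDHA, where the bar runs from -0.55 to 0.46.

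Matrix genes rose broadly. In the list of matrix glycoproteins, matricellular proteins and fibroblast activation, 25 of 39 members were up-regulated (64.1%) and 3 down-regulated (7.69%), against 7.47% and 22.9% of all genes. The median was 0.81, beside 0.54, 0.12 and 0.99 in H2452, H28 and MSTO-211H. In the list of collagens and collagen-modifying enzymes, 13 of 31 were up-regulated (41.9%) and 6 down-regulated (19.4%). Its median was 0.35, beside 0.02, 0.02 and 0.66 in the same order of lines. FN1, encoding fibronectin, rose from 35220 and 36465 to 133255 and 110055 CP20M (1.76 ± 0.17, limma adjusted p = 1.05e-05). TIMP3, an inhibitor of matrix metalloproteinases, rose from 18401 and 15766 to 46915 and 54295 CP20M, and MFAP5, a microfibril protein, from 843 and 1021 to 4137 and 4428 CP20M. In all 3 genes the palbociclib libraries stood well apart from the DMSO libraries. COL1A1, the main chain of type I collagen, was instead at 4811 and 4229 against 3402 and 2651 CP20M (-0.59 ± 0.12, not called with median-of-ratios scaling). Of the mesenchymal markers used for the check of the line, VIM, encoding vimentin, was at 38428 and 37517 against 46683 and 35941 CP20M, with overlapping groups.

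FAP and TNC were the matrix genes that most separated H2052. FAP, the serine protease known from activated fibroblasts, rose from 180 and 90 to 1133 and 793 CP20M (2.80 ± 0.16, limma adjusted p = 1.22e-07). It changed by 0.55 ± 0.33 in H2452 and by 0.20 ± 0.40 in H28, which had under 10 CP20M, and by 0.74 ± 0.81 in MSTO-211H (difference 2.30 ± 0.36, limma adjusted p = 0.00636). TNC (ENSG00000041982, chr9:115019575-115118207), encoding the matrix protein tenascin-C, fell from 461 and 799 to 35 and 59 CP20M (-3.47 ± 0.18, limma adjusted p = 7.28e-08). TNC changed by 2.46 ± 0.44 in H28, by -1.89 ± 0.38 in H2452 and by -1.62 ± 1.36 in MSTO-211H, and the difference was -3.12 ± 0.50 (limma adjusted p = 0.00652). It was lost without the block and without H28, the line whose change was positive. In the collagen list, 5 of the 34 genes tested for the difference had a higher change in H2052 than in the other lines under both scalings, namely COL4A2, COL5A1, COL6A2, PLOD1 and PLOD2, and 1 did so without the block. The shares of all genes were 1.32% with the deposited scaling and 2.14% with median-of-ratios scaling. COL5A1, a chain of type V collagen, rose from 7005 and 6719 to 17089 and 19332 CP20M, against -2.26 ± 0.27 in H28, 0.06 ± 0.48 in H2452 and 1.95 ± 0.73 in MSTO-211H (difference 1.48 ± 0.31, limma adjusted p = 0.0197).

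Genes of epithelial barrier, antiproteases and stratified epithelium were mostly up-regulated where tested. Of 23 members, 11 reached the level to be tested in H2052, and of these 9 were up-regulated and 1 down-regulated. A member below that level in both DMSO libraries could be tested only if it was higher in a palbociclib library. PI3, IVL and FOXA1 entered in this way, and ESRP1 through its DMSO libraries alone. The share up-regulated among tested members is thus partly set by the filter, and does not describe the untested members. PI3 (ENSG00000124102, chr20:45174902-45176544), encoding the elastase inhibitor elafin, rose from 27 and 70 to 676 and 1037 CP20M (3.96 ± 0.18, limma adjusted p = 3.7e-08). The other lines had 0 CP20M of PI3 in each DMSO library and at most 72 CP20M in a palbociclib library, and the difference of 3.04 ± 0.45 (limma adjusted p = 0.005) was lost with a pseudocount of 1. IVL, encoding involucrin of the cornified envelope, rose from 66 and 40 to 398 and 246 CP20M (2.39 ± 0.20), with a difference of 2.09 ± 0.51 (limma adjusted p = 0.0349) from lines that had at most 60 CP20M in any library. FOXA1, a pioneer transcription factor of epithelia, rose from 83 and 79 to 186 and 235 CP20M and changed in H2452, H28 and MSTO-211H by -0.05 ± 0.32, -0.38 ± 0.20 and -0.11 ± 0.12 (difference 1.45 ± 0.21, limma adjusted p = 0.00442). ESRP1, an epithelial splicing regulator, fell from 125 and 193 to 66 and 49 CP20M, and was near 0 in the other lines.

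Mesothelial markers were mixed, with 8 of 17 tested up-regulated (47.1%) and 1 down-regulated (5.88%), against 7.47% and 22.9% of all genes. CALB2, encoding calretinin, rose from 23 and 25 to 238 and 231 CP20M (2.85 ± 0.23, limma adjusted p = 2.89e-06). UPK1B, a uroplakin, rose from 215 and 142 to 1016 and 1151 CP20M, and MSLN, encoding mesothelin, from 3513 and 4999 to 6180 and 6853 CP20M. The groups did not overlap for any of the 3, and none had a called difference from the other lines. Without a call, WT1 (591 and 506 against 441 and 461 CP20M), BNC1 (1875 and 1478 against 1238 and 1195) and KRT19 (20856 and 26295 against 18404 and 17981) were lower. The list median was 0.11, beside 0.13, 0.13 and 0.46 in H2452, H28 and MSTO-211H. HAS2, the hyaluronan synthase, fell from 1177 and 921 to 220 and 349 CP20M (-1.87 ± 0.19, limma adjusted p = 1.94e-05). The other lines had at most about 2 CP20M of HAS2 on average, so that its difference of -1.92 ± 0.25 compares H2052 with lines near 0.

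Complement genes rose in part. C3, the central component of the cascade, rose from 151 and 337 to 1950 and 6220 CP20M (3.89 ± 0.15, limma adjusted p = 2.59e-08). Palbociclib replicate 2 was the highest library by far, but both pairs moved by a similar factor. Of the 16 tested, 6 were up-regulated (37.5%) and 2 down-regulated (12.5%), against 7.47% and 22.9% of all genes. The median was 0.46, beside 0.97, 0.38 and 0.48 in H2452, H28 and MSTO-211H. Among those up-regulated, C1S and its inhibitor SERPING1 rose from 1172 and 1721 to 3799 and 4003 CP20M and from 2592 and 3776 to 8151 and 10153 CP20M. The changes of C3 in the other lines ran from 1.36 ± 0.33 to 3.66 ± 1.38, and its difference did not pass (1.44 ± 0.56, limma adjusted p = 0.137). CLU, encoding the complement regulator clusterin, differed in direction: it was at 407 and 610 against 306 and 317 CP20M in H2052 (not called with median-of-ratios scaling or without either replicate), and changed by 0.93 ± 0.20, 0.92 ± 0.39 and 0.49 ± 0.60 in H2452, H28 and MSTO-211H (difference -1.44 ± 0.27, limma adjusted p = 0.0121).

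Inflammatory genes rose in part. Of 27 cytokine, chemokine and NF-kB feedback genes, 14 were up-regulated (51.9%) and 2 down-regulated (7.41%), against 7.47% and 22.9% of all genes. Without the block, 8 were up-regulated. The median was 0.62, beside 0.35, 0.21 and 0.64 in H2452, H28 and MSTO-211H. ICAM1, the leukocyte adhesion molecule, rose from 1638 and 2023 to 12017 and 14114 CP20M (2.83 ± 0.11, limma adjusted p = 2.59e-08). TNFAIP3, encoding the NF-kB inhibitor A20, rose from 1684 and 1918 to 4020 and 5161 CP20M, and CCL2, a monocyte chemokine, from 44 and 91 to 287 and 408 CP20M. IL6 rose from 67 and 290 to 426 and 623 CP20M (1.79 ± 0.26, limma adjusted p = 0.000197), with DMSO replicates that differed more from each other than those of ICAM1. The H2052 rise of ICAM1 lay above all 9 other pairs, but its difference of 1.41 ± 0.37 (limma adjusted p = 0.0449) lost its call under median-of-ratios scaling (adjusted p = 0.0563). TNFSF10, encoding the death ligand TRAIL, rose from 36 and 44 to 291 and 216 CP20M (2.39 ± 0.23). Its changes were -0.41 ± 0.89, 1.13 ± 0.34 and 0.07 ± 0.27 in H2452, H28 and MSTO-211H (difference 2.12 ± 0.38, limma adjusted p = 0.0103).

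Interferon-stimulated and MHC genes did not move as a body. Of 36 interferon-stimulated genes, 11 were up-regulated (30.6%) and 6 down-regulated (16.7%), against 7.47% and 22.9% of all genes. Their median was 0.06 (0.34 with median-of-ratios scaling), where H2452, H28 and MSTO-211H had medians of 0.63, 0.42 and 0.24. IFIT2, an antiviral effector, rose from 406 and 550 to 1941 and 2398 CP20M (2.17 ± 0.12, limma adjusted p = 1.2e-07), and the difference was 0.13 ± 0.20. PSMB9, an immunoproteasome subunit, fell from 281 and 367 to 128 and 115 CP20M, with a difference of -1.18 ± 0.27 (limma adjusted p = 0.0279). TAP1, the peptide transporter of MHC class I loading, was at 910 and 1089 against 712 and 708 CP20M, below the 1.5-fold limit, and its difference of -0.92 ± 0.20 (limma adjusted p = 0.0207) was not called with median-of-ratios scaling (adjusted p = 0.0544). The 18 MHC genes had 5 up-regulated (27.8%), among them HLA-B, HLA-C and HLA-E, whose similar sequences can share reads, and 3 down-regulated (16.7%). Their median of -0.12 turned to 0.14 with median-of-ratios scaling.

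Lysosomal genes rose, while lipid genes diverged. Of 58 lysosome and V-ATPase genes, 22 were up-regulated (37.9%) and 1 down-regulated (1.72%), against 7.47% and 22.9% of all genes, or 40 and 0 with median-of-ratios scaling. The median was 0.47, and the medians in H2452, H28 and MSTO-211H were 0.51, 0.43 and 0.61. CTSB, encoding cathepsin B, rose from 20133 and 23331 to 62560 and 54307 CP20M. GABARAPL1, an autophagosome protein, rose from 484 and 759 to 2299 and 3147 CP20M (2.13 ± 0.12, limma adjusted p = 1.23e-07), above all 9 other pairs (difference 1.29 ± 0.26, limma adjusted p = 0.0175). OLR1, encoding the scavenger receptor LOX-1 for oxidised LDL, made the largest rise of the line, from 17 and 36 to 509 and 1098 CP20M (4.43 ± 0.19, limma adjusted p = 3.23e-08). The change was 5.18 ± 0.98 in MSTO-211H, whereas H2452 and H28 had under 10 CP20M, so the called difference of 2.60 ± 0.41 was not one from every line. ANGPTL4, an inhibitor of lipoprotein lipase, rose from 19 and 11 to 484 and 394 CP20M, where the H2452 change was 4.29 ± 0.99. LIPA, the lysosomal acid lipase, rose from 4102 and 5408 to 18635 and 20442 CP20M (difference 0.95 ± 0.20, limma adjusted p = 0.0195). PPARG, the lipid-sensing nuclear receptor, fell from 531 and 529 to 238 and 214 CP20M (-1.20 ± 0.15), below all 9 other pairs (difference -1.16 ± 0.21, limma adjusted p = 0.0117).

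Of 29 cholesterol and fatty acid synthesis genes, 16 were down-regulated (55.2%, against 22.9% of all genes) and 0 up-regulated in limma (21 and 0 at an unadjusted p under 0.05). With median-of-ratios scaling, 7 were down-regulated. The median was -0.60, and the medians were -0.45 in H28, -0.21 in MSTO-211H and -0.51 in H2452. PMVK, the phosphomevalonate kinase, fell from 304 and 459 to 170 and 143 CP20M and changed in H2452, H28 and MSTO-211H by -0.12 ± 0.14, 0.08 ± 0.06 and 0.10 ± 0.25 (difference -1.23 ± 0.21, limma adjusted p = 0.00796). ELOVL6, which elongates fatty acids, fell from 1442 and 1375 to 650 and 562 CP20M (-1.21 ± 0.12), against 0.02 ± 0.30 in H28, 0.08 ± 0.17 in MSTO-211H and -1.01 ± 0.28 in H2452. Its difference of -0.91 ± 0.17 (limma adjusted p = 0.014) was not called with median-of-ratios scaling (adjusted p = 0.0638).

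Of 29 targets of TEAD and YAP tested, 6 were up-regulated (20.7%) and 4 down-regulated (13.8%), against 7.47% and 22.9% of all genes, with a median of 0.12. CTGF, a matricellular YAP target, rose from 635 and 549 to 2319 and 1810 CP20M (1.78 ± 0.12, limma adjusted p = 5.39e-07), and ANKRD1 from 1615 and 313 to 3838 and 2157 CP20M. AXL, a receptor tyrosine kinase in the same list, fell from 21992 and 20500 to 11277 and 10889 CP20M (-0.94 ± 0.13, limma adjusted p = 0.000135). Its changes in the other lines ran from -0.90 ± 0.28 to -1.09 ± 0.26, with a difference of 0.06 ± 0.23. ANKRD1 was less even, since its call was lost without the block.

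Of 31 WNT, BMP and TGF-beta genes, 12 were up-regulated (38.7%) and 6 down-regulated (19.4%), against 7.47% and 22.9% of all genes. GREM1, encoding the BMP antagonist gremlin-1, was at 210 and 17 CP20M in DMSO cells and at 658 and 75 CP20M in palbociclib cells, so that the groups overlapped although each pair rose (1.63 ± 0.20, limma adjusted p = 6.21e-05, lost without the block). Its difference was 1.99 ± 0.44 (limma adjusted p = 0.0242, lost without the block). WNT7B, a WNT ligand, fell from 130 and 161 to 28 and 29 CP20M, below all 9 other pairs (difference -1.26 ± 0.25, limma adjusted p = 0.016). Of 13 ERK feedback genes, 6 were up-regulated (46.2%), including DUSP6, against 7.47% of all genes. Their median was 0.34, beside 0.05, 0.63 and 1.06 in H2452, H28 and MSTO-211H. Of the 17 tested for the difference, 0 had a called one in limma (0 higher and 1 lower at an unadjusted p under 0.05), against 1.32% higher and 4.59% lower of all genes. Of 17 xenobiotic and retinoid genes, 4 were up-regulated (23.5%) and 1 down-regulated (5.88%), against 7.47% and 22.9% of all genes. Of the 22 tested for the difference, 3 were higher and 3 lower, against 1.32% and 4.59% of all genes.

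**Figure D4:**
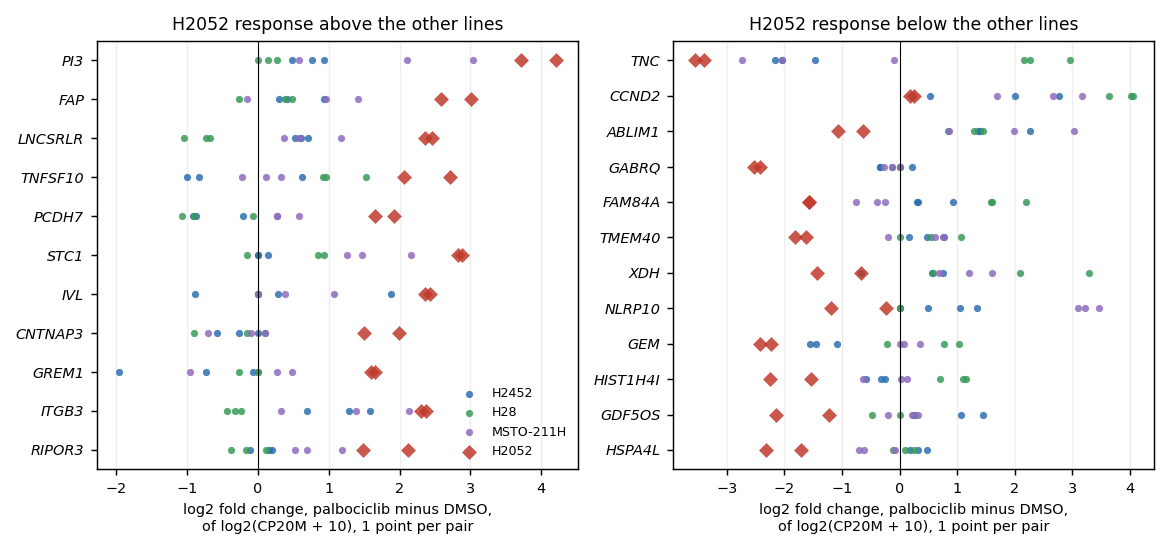
log2 fold change of palbociclib against DMSO in each of the 2 H2052 pairs and the 9 pairs of H2452, H28 and MSTO-211H, for 11 of the 12 highest and the 12 lowest called differences of genes at a mean of 200 CP20M or more in H2052 whose H2052 pairs both lay outside the range of the other pairs. The choice of genes thus fixes that the H2052 points stand apart, and the points of H28 for TNC, at up to 2.96, lie farthest from those of H2052.

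The remaining genes with the largest differences had various functions. HSPA4L, a chaperone of the HSP110 family, fell from 861 and 856 to 255 and 163 CP20M (-2.02 ± 0.16, limma adjusted p = 2.71e-06), against 0.07 ± 0.18 in H28, -0.47 ± 0.35 in MSTO-211H and 0.33 ± 0.15 in H2452. The difference of -1.999 ± 0.19 (limma adjusted p = 0.000823) was called under all 24 alternatives, as was that of HIST1H4I. ABLIM1, an actin-binding protein, fell from 963 and 680 to 452 and 436 CP20M (not called with median-of-ratios scaling or without either replicate), and changed by 1.67 ± 0.51, 1.20 ± 0.31 and 1.95 ± 1.08 in H2452, H28 and MSTO-211H (difference -2.46 ± 0.42, limma adjusted p = 0.00846). GEM, a small GTPase, fell from 444 and 466 to 75 and 91 CP20M, with a difference of -2.10 ± 0.27. ITGB3, the integrin beta 3 chain, rose from 192 and 156 to 985 and 850 CP20M (2.34 ± 0.14). In H28, which had far more of it, ITGB3 changed by -0.34 ± 0.10, and the difference was 1.63 ± 0.35 (limma adjusted p = 0.0209). PCDH7, a protocadherin, rose from 126 and 125 to 419 and 501 CP20M, against -0.67 ± 0.39 in H2452 and -0.68 ± 0.53 in H28 (difference 2.12 ± 0.27, limma adjusted p = 0.00316). LNCSRLR, a long non-coding RNA, rose from 57 and 75 to 333 and 459 CP20M (difference 2.24 ± 0.23, limma adjusted p = 0.000823), and the call held under all 23 alternatives that gave a value.

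Several of these genes were hardly expressed outside H2052. GABRQ, a GABA-A receptor subunit, fell from 655 and 450 to 105 and 76 CP20M (-2.48 ± 0.16, limma adjusted p = 4.73e-07), where the other lines had at most 5 CP20M on average. TMEM40, a membrane protein, fell from 219 and 286 to 64 and 74 CP20M, where the other lines had under 10 CP20M on average. FAM84A, in contrast, fell from 226 and 256 to 69 and 79 CP20M (-1.58 ± 0.19) and changed by 1.79 ± 0.35 in H28, with a difference of -2.19 ± 0.25 (limma adjusted p = 0.00143) under all 23 alternatives that gave a value. CNTNAP3, a contactin-associated protein, rose from 56 and 51 to 177 and 233 CP20M, and RIPOR3 from 118 and 102 to 348 and 474 CP20M. XDH, the xanthine dehydrogenase, fell from 490 and 255 to 175 and 156 CP20M, but its difference of -2.18 ± 0.57 (limma adjusted p = 0.0412) was not called with median-of-ratios scaling (adjusted p = 0.0767). NLRP10, at 259 and 615 against 219 and 263 CP20M, had palbociclib libraries that overlapped the DMSO libraries and no call in H2052 with median-of-ratios scaling, and GDF5OS, an antisense gene counted from directional libraries by a setting that the sources used here do not give, fell from 375 and 957 to 154 and 210 CP20M.

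Of the other genes with the largest changes, SYNPO2L, encoding an actin-associated protein of muscle, rose from 171 and 65 to 1223 and 814 CP20M (3.11 ± 0.18, limma adjusted p = 1.27e-07), and PTPRQ, a phosphatidylinositol phosphatase, from 51 and 123 to 655 and 745 CP20M. LIPH, a phospholipase that makes lysophosphatidic acid, rose from 31 and 79 to 332 and 516 CP20M, with a change of 4.36 ± 0.07 in MSTO-211H. NEURL1B, a ubiquitin ligase of Notch ligands, fell from 795 and 421 to 64 and 23 CP20M (-3.58 ± 0.19, limma adjusted p = 7.45e-08).

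Calls among genes of RNA and protein synthesis depended on the scaling. Of 25 splicing factor genes, 23 were down-regulated (92.0%, against 22.9% of all genes), and 18 with median-of-ratios scaling (against 10.3% of all genes). Their median was -0.92, beside medians of -0.84, -0.84 and -0.70 in H2452, H28 and MSTO-211H. Of 32 MYC and nucleolar ribosome biogenesis genes, 21 were down-regulated (65.6%, median -0.69), but 8 with median-of-ratios scaling, against 22.9% and 10.3% of all genes. A lower difference was called for 2 with the deposited scaling and for 0 with the other, against 4.59% and 1.98% of all genes. Both H2052 pairs lay below all 9 other pairs for 13 of the 32, against 9.72% of all genes, and 23 differences were lower at an unadjusted p under 0.05. The medians of these genes in H2452, H28 and MSTO-211H were -0.37, -0.27 and -0.14. FBL, the methyltransferase of box C/D ribonucleoproteins, was the lowest of them, at -1.49, and was called by both. Of 81 cytosolic ribosomal protein genes, 53 were down-regulated with a median of -0.65, and 18 with median-of-ratios scaling, against 22.9% and 10.3% of all genes. Their medians in H2452, H28 and MSTO-211H were -0.25, -0.37 and -0.43. The 15 mitochondrially encoded genes had a median of 0.25 in H2052, against 1.06, 1.01 and 0.64 in H2452, H28 and MSTO-211H, with 0 called differences in limma under either scaling (0 higher and 1 lower at an unadjusted p under 0.05).

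**Figure D5:**
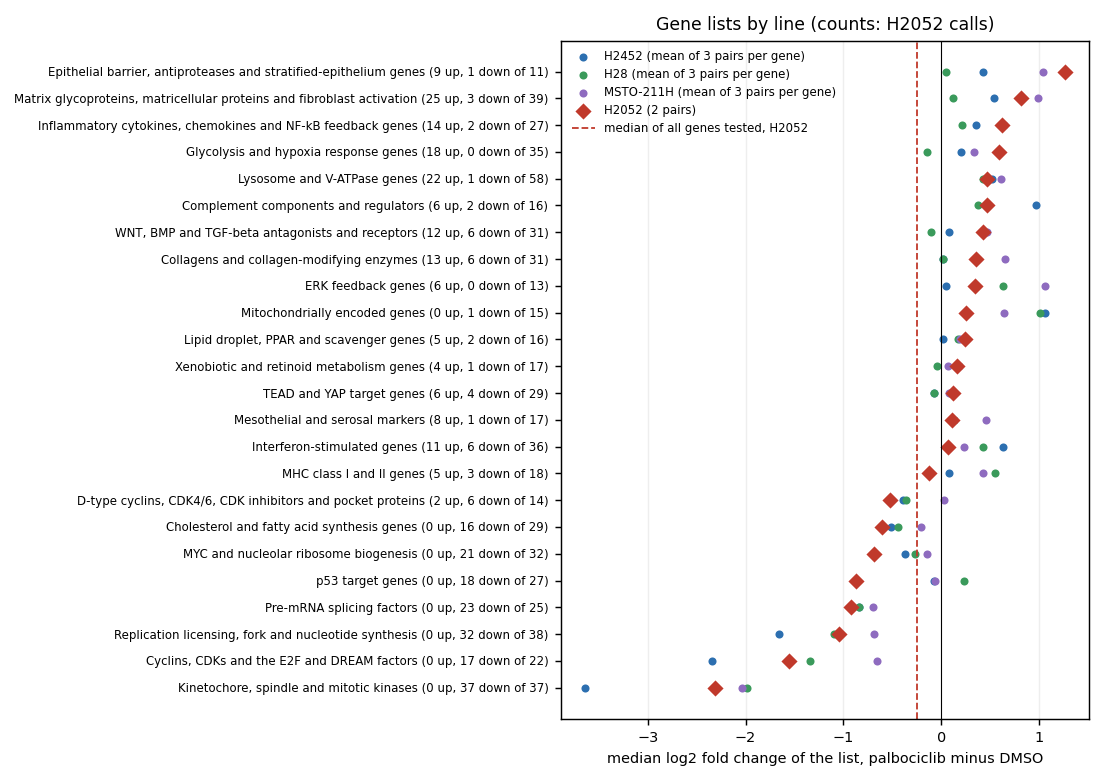
Median log2 fold change of each gene list in H2052 and in the other sensitive lines over the genes tested in H2052, with the median over all genes tested. The H2052 median lies below those of the other 3 lines for p53 targets, at -0.87, and above them for glycolysis and hypoxia genes, at 0.59.

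The H2052 washout library came from the same experiment as replicate 2 and has no replicate. The 11 genes named for the largest rises, chosen by their rise over these same DMSO libraries, were all still above both DMSO libraries after the 48 h. All 11 were below palbociclib replicate 2, the library of the same experiment, and 6 of them were below both palbociclib libraries. ICAM1 was at 12303 CP20M, between its palbociclib values, whereas ANGPTL4 was at 145 CP20M. All 12 genes with the largest falls were above both palbociclib libraries and below both DMSO libraries, with HIST1H1B at 742 CP20M and LMNB1 at 588 CP20M. RRM2 was at 3153 CP20M, between its DMSO values and above that of DMSO replicate 2.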

How the data were processed

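RNA of cultured cells was made into directional libraries and sequenced as paired-end reads. The authors trimmed reads (Trimmomatic 0.36), mapped them to GRCh38 (STAR 2.5.3), counted them per gene (HTSeq 0.9.1) and deposited a normalized score, CP20M, in which each library's counts are scaled to about 20 M reads and rounded up to whole numbers. The filter at 100 CP20M and DESeq2, which the authors describe, leave no trace in the deposited matrix of 58302 genes, and count models were not used here because scaled values are not counts. The depth of a library is therefore known only where whole numbers are skipped.

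Fits used limma 3.58.1 in R 4.3.3 (eBayes with trend) on log2(CP20M + 10). Replicate number, which stands for the experiment, was the block, following the pairing in the study's methods. Genes had to reach 100 CP20M in at least 1 library of the fit. DE genes had a change above 1.5-fold and a Benjamini-Hochberg FDR under 0.05. With 4 libraries and 1 residual degree of freedom, the spread rests largely on the prior shared over genes (10.9 degrees of freedom). The numbers come from the study's experiments, and same-numbered libraries deviated together (r = 0.42 across genes, which are not independent). The difference between lines was fitted over 22 libraries, or 11 pairs, and tests were two-sided. Functions were tested on simulated data. Replicates of a condition had identical values at up to 0.886% of genes, so no library was counted as a copy.

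Gene names are those of the matrix. Gene positions came from GENCODE 44 (57532 IDs matched) and promoters from RefSeq, GRCh38.p14. Named genes were the 12 largest rises and falls at a mean of 200 CP20M or more, the 12 highest and 12 lowest differences whose H2052 pairs lay outside the range of the other pairs, and members of the lists with large or opposite changes. UGT1A genes, which share exons, clone names, pseudogenes and sex-linked genes were left out, and a few others are not reported here. CDKN2A and its neighbours, LATS2 and list members given as examples were named with their values known. The members and lists were chosen with earlier results of these data known. Scaling, pseudocount, filter, block, moderation, pair and line were varied.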

Additional observations from a re-analysis of the deposited data

Results flagged for a closer look

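The response of H2052 differed from the mean response of H2452, H28 and MSTO-211H, by the test of the difference itself (limma, adjusted over 16759 genes), for 23 genes described by their values above. As log2 fold change of H2052 minus the mean of the other lines, the higher differences were 3.04 for PI3, 2.30 for FAP, 2.24 for LNCSRLR, 2.12 for TNFSF10, 2.12 for PCDH7 and 2.12 for STC1. They were followed by 2.09 for IVL, 2.03 for CNTNAP3, 1.99 for GREM1, 1.63 for ITGB3 and 1.56 for RIPOR3.

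The lower differences were -3.12 for TNC, -2.51 for CCND2, -2.46 for ABLIM1, -2.36 for GABRQ, -2.19 for FAM84A and -2.19 for TMEM40. They were followed by -2.18 for XDH, -2.12 for NLRP10, -2.10 for GEM, -2.05 for HIST1H4I, -2.01 for GDF5OS and -1.999 for HSPA4L. Of the 23, LNCSRLR, FAM84A, HIST1H4I and HSPA4L kept their call under all alternatives that gave a value. PI3, IVL, GABRQ and TMEM40 stayed below 100 CP20M in all libraries of the other lines, and their calls were lost with a pseudocount of 1.

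In the washout library of H2052, which no comparison used, 11 of the 11 genes named for the largest rises were above both DMSO libraries. These genes were chosen by their rise over the same DMSO libraries, and there was no replicate to set an error.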

How the results depend on the processing

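For palbociclib against DMSO in H2052, 1055 genes were higher and 3237 lower. The counts were 83 and 201 without a filter other than a value above 0, and 2055 and 1450 with median-of-ratios scaling, while upper-quartile scaling gave 2095 lower genes. Without replicate 1 or 2, with the spread taken from the other lines, 425 to 520 genes were higher and 1696 to 2320 lower. Without the replicate block, 943 genes were higher and 2834 lower. For the difference between H2052 and the other lines, with 221 higher and 770 lower, the counts were 50 and 134 without the replicate block, 137 and 489 with 100 CP20M required in 11 of the 22 libraries, and 359 and 332 with median-of-ratios scaling. Pseudocount 1 gave 135 higher genes and upper-quartile scaling 462 lower genes. Leaving out 1 pair or line gave 9 to 572 higher and 22 to 1511 lower, with the lowest without H2052 replicate 2 and the highest without MSTO-211H, while the counts were 46 and 202 without H2052 replicate 1, 140 and 468 without H2452 replicate 1, 111 and 342 without H28, and 483 lower without H28 replicate 1. The cause of these shifts was not tested.

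Of 393 list and named genes called in H2052, 78 kept their call under all alternatives that gave a value. The unfiltered fit lost 295, replicate 1 left out lost 164, replicate 2 left out 174, median-of-ratios scaling 60 and the fit without the replicate block 41. MMP2, at 0.77, was the single value that reversed, to -0.063 without replicate 1, and it was 1.60 without replicate 2. Of 92 such genes with a called difference, 5 kept it throughout, and 57 lost it without the replicate block, 48 without H28, 58 without H2052 replicate 1 and 81 without H2052 replicate 2. Where the depth of a library is unknown, levels under about 10 CP20M cannot be given a counting error.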
